A study of Mus musculus with 3 samples.

Results

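A set of 10 transcription regulators that steer the lineage and effector fate of T cells was followed in RNA of activated regulatory T cells from the mouse: the T-box factors Tbx21 (T-bet) and Eomes, the zinc finger factor Gata3, the basic leucine zipper factor Maf, the repressor Prdm1 (Blimp-1), the CD4 lineage factor Zbtb7b (ThPOK), the chromatin organizer Satb1, the HMG-box protein Tox, and the zinc finger E-box factors Zeb1 and Zeb2. The set was chosen by name, and each of the 10 symbols matched 1 of the 55536 genes measured. The cells were primary cells of 1 biosample, from a male adult source aged 9 weeks, with the whole organism given as origin. The strain name joins 3 engineered loci, all of which every library shares: Foxp3GFP-DTR, a fluorescent reporter and toxin receptor driven from the gene of the regulatory T cell factor Foxp3, CD4CreERT2, a tamoxifen-inducible recombinase driven from Cd4, and R26tdTomato, a fluorescent reporter at the Rosa26 locus. Polyadenylated RNA was fragmented by shearing and sequenced as 3 libraries, numbered technical replicates 1, 2 and 3 of 1 biological replicate. How the cells were activated, and how many animals were pooled, is not stated in the labels. All 3 libraries form 1 group with no resting population beside it, so levels are described, libraries are compared with one another, and SDs and p-values measure only a spread between libraries that may be technical.

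A helper T cell takes its effector type from lineage-determining factors: T-bet drives the interferon-gamma programme called type 1, and GATA-3 drives the IL-4, IL-5 and IL-13 programme called type 2. Regulatory T cells carry many of the same factors at graded levels, where T-bet marks cells that home to type 1 inflammation, GATA-3 and c-Maf mark tissue and mucosal populations, and Blimp-1 marks differentiated effector regulatory cells. ThPOK holds CD4 T cells in their lineage, SATB1 organizes chromatin loops and is restrained by Foxp3, TOX acts in CD4 T cell development and under lasting antigen stimulation, and the ZEB proteins are repressors, with ZEB1 known at the Il2 promoter and ZEB2 known to act with T-bet in terminal effector cells.

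Sequences are shown first for the members whose annotated transcripts differ in the protein they encode, because the values below divide each gene's RNA between these forms. Coordinates are on mouse GRCm38 (mm10), and coding bases are those of the GENCODE M21 transcripts. Maf lies on the minus strand at chr8:115682942-115707794. Its spliced transcript Maf-201 and its unspliced transcript Maf-202 share 1109 coding bases by genomic position and then part. Their ends are printed here without the stop codon. Capitals mark bases at genomic positions that the other transcript's coding sequence lacks. The first capital is the letter G in both.
Maf-201: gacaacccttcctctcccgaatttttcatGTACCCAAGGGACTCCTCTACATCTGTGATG
Maf-202: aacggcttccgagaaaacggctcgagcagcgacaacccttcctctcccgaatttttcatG
The coding sequence was 1140 bases in Maf-201 and 1110 in Maf-202, which makes 380 and 370 codons.

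Prdm1 lies on the minus strand at chr10:44437177-44528501, and its 3 coding transcripts begin differently. Capitals mark the first coding bases of each, up to the point from which all 3 read alike.
Prdm1-201: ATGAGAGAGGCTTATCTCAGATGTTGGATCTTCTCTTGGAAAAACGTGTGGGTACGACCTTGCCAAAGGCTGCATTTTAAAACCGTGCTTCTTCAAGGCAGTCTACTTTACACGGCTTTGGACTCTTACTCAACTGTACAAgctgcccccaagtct
Prdm1-202: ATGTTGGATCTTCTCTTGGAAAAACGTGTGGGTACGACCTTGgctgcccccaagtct
Prdm1-204: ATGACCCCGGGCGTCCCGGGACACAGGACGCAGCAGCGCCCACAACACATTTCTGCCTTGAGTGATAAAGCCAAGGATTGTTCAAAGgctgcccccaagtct
Every coding base of Prdm1-202 (2469 bases) is also in Prdm1-201 (2568 bases), which holds 99 more, whereas Prdm1-204 replaces the first 141 bases of Prdm1-201 by 87 of its own.

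Eomes lies on the plus strand at chr9:118478212-118486132. Its transcripts Eomes-201 and Eomes-202 differ by a stretch of 57 coding bases, shown in capitals between 15 bases on either side.
Eomes-201: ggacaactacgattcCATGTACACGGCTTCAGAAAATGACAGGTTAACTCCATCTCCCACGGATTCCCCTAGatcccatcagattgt
Eomes-202: ggacaactacgattcatcccatcagattgt
The coding sequence was 2121 bases with the stretch and 2064 without it.

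Zbtb7b and Satb1 instead hold several transcripts with identical coding sequences and separate starts, so the sequences that tell these apart are the windows before the starts. Each window below holds the 250 bases before an annotated RefSeq start (assembly GRCm38.p6), read 5′ to 3′ on the gene's own minus strand. Capitals mark matches to 2 motifs searched on both strands, the E-box bound by ZEB proteins (CACCTG, or CAGGTG on the other strand) and the RUNX motif (TGTGGT, or ACCACA). The first Zbtb7b window, chr3:89393379-89393628, lies before the start of Zbtb7b-209 in the distal group of starts, and the next, chr3:89387672-89387921, before the start of Zbtb7b-204 in the proximal group.
Zbtb7b distal: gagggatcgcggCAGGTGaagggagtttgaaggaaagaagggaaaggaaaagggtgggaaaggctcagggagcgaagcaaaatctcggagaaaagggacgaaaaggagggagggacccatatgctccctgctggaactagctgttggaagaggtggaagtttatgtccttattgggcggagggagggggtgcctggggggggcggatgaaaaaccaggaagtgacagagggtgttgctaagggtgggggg
Zbtb7b proximal: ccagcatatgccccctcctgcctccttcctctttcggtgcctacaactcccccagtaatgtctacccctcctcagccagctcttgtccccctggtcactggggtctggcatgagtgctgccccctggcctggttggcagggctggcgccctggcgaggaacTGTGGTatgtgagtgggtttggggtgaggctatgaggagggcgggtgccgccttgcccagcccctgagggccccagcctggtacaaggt
The first Satb1 window, chr17:51833291-51833540, precedes the most upstream start, and the next, chr17:51826589-51826838, precedes a start 6702 bases downstream of it.
Satb1 upstream: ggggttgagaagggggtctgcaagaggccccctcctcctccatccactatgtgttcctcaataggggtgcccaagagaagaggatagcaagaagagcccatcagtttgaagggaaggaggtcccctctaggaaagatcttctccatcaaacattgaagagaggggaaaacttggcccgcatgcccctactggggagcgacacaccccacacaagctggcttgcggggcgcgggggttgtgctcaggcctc
Satb1 downstream: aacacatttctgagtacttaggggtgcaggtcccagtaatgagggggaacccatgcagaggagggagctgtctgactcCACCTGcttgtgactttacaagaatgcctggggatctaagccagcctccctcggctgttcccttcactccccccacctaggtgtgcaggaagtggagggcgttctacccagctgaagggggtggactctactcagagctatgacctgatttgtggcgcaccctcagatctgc
RefSeq windows were matched for 7 of the 10 genes, 15 windows in all. Some windows of Zeb2 and some of Satb1 overlap one another, so the 15 are not all separate sequences. The E-box was found in 4 of the 15 windows, against 17.2% of all 32851 windows of that length, and the RUNX motif in 1, against 14%. A GATA motif (AGATAA, or TTATCT on the other strand) and a T-box motif (GGTGTGA, or TCACACC on the other strand) were in none of the 15, against 9.99% and 3.33% of all windows. A match is a stretch of letters in a window and not a measured binding site.

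The libraries held 20783525, 21206150 and 18496578 estimated counts for replicates 1, 2 and 3. All 5 regulatory T cell markers were present in every library, among them Foxp3 at 90.8, 96.4 and 83.0 TPM, where TPM is a level per transcript length that sums to the same total in each library. The 5 markers of T cells in general summed to 7750, 7000 and 7960 TPM. Markers of other cells were present at lower sums: 5 erythroid genes, mostly globins, at 909, 1270 and 1150 TPM, 7 B cell genes at 62.1, 63.0 and 71.5 TPM, 9 stromal, endothelial and epithelial genes at 100, 96.2 and 108 TPM (mostly Pecam1, at 94.7, 92.1 and 105 TPM), 8 myeloid and dendritic genes at 31.1, 22.4 and 33.8 TPM, 4 plasma cell genes at 2.64, 6.13 and 3.48 TPM, and 5 natural killer cell genes at 2.31, 3.13 and 2.04 TPM. In bulk RNA, fewer cells with a transcript and less of it per cell cannot be told apart.

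All 10 factors were present at 1 TPM or more in every library. They spanned from Tox at 119 ± 15.4 TPM (SD, n = 3) to Eomes at 1.71 ± 0.318 TPM. Tox and Gata3 stood above 100 TPM, 5 factors lay between 20 and 60 TPM (Zbtb7b, Zeb1, Maf, Satb1 and Prdm1), and Tbx21, Zeb2 and Eomes lay lowest. Levels are of whole genes, noncoding transcripts included, and the coding transcripts of Zeb1 alone held 10.6, 9.91 and 6.73 TPM. The median over the 10 was 33.8 TPM, beside 26.1 TPM over the 10425 protein-coding genes that reached 1 TPM in every library. Of the 9 pairs of neighbours in this order, 7 had the same order in every library and 5 had ranges that did not overlap. Tox and Gata3 changed places in replicate 2, and Zeb2 and Eomes also changed places there. The ranges of Maf and Satb1, and of Satb1 and Prdm1, overlapped, although each of these pairs kept its order within every library.

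**Figure D1:**
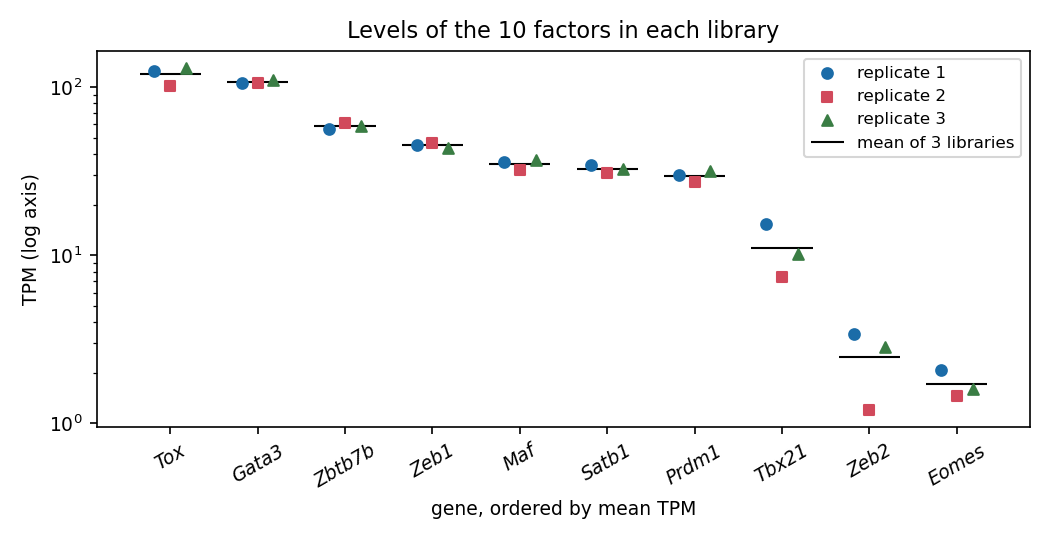
TPM of each of the 10 factors (y axis, log scale) in each library (points, replicates 1 to 3) with the mean of the 3 libraries (line), genes ordered by mean. Tox and Gata3 sit above 100 TPM. Replicate 2 is the lowest point for every factor except Zbtb7b and Zeb1, for which it is the highest.

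Whether libraries differed by more than counting noise was asked for every gene whose estimated counts summed to at least 30, by a chi-square test of the rounded counts against the library totals with Benjamini-Hochberg adjustment over all 14641 genes tested. At an adjusted p under 0.05, 6 of the 10 factors differed between libraries (Tox, Gata3, Zbtb7b, Zeb1, Tbx21 and Zeb2), beside 44.9% of all genes tested. With a further demand that the highest library exceed the lowest by 1.5-fold in CPM (counts scaled to the library total, with no length correction), 2 of 10 remained, Tbx21 and Zeb2, beside 12.2% of all genes tested. Of the 10, 3 were called with replicate 2 lowest (Tox, Tbx21 and Zeb2), beside 16.4% of all genes tested. Among all called genes, replicate 2 was lowest in 36.6%, beside 3 of these 6. The median ratio of the highest to the lowest library was 1.18 over the 10 factors and 1.22 over all genes tested. Over the 9957 genes with a mean of 100 counts or more it was 1.15.

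**Figure D2:**
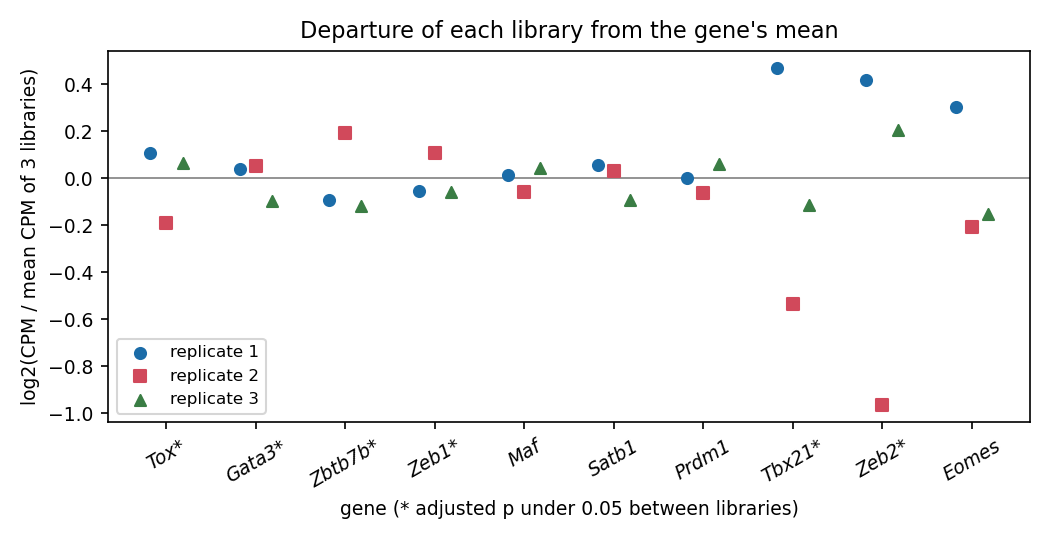
Log2 of each library's CPM over the gene's mean CPM (y axis) for the 10 factors in order of level (points, replicates 1 to 3; a star marks adjusted p under 0.05 in the chi-square test). Replicate 2 lies lowest for 6 of the 10, among them Tbx21 and Zeb2, whose libraries differ by 2.01-fold and 2.61-fold. Maf, Satb1 and Prdm1 lie within 1.11-fold.

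Tbx21, on chr11:97098071-97115331 (minus strand), encodes T-bet, the factor that switches on interferon-gamma and the chemokine receptor CXCR3. Its TPM was 15.3 in replicate 1, 7.43 in replicate 2 and 10.2 in replicate 3, a mean of 11.0 ± 4.01 TPM (SD, n = 3). Replicate 1 was the high library and replicate 2 the low one. These levels rested on 494, 251 and 293 estimated counts, and the libraries differed by 2.01-fold in CPM (adjusted p = 6.84e-19, chi-square test). Of all genes tested, 8.48% showed a ratio at least as large, and of the 9957 genes with a mean of 100 counts or more, 1.19% did. The smaller deposited table, made on an older annotation, held 313, 166 and 179 counts, with the same libraries highest and lowest. Without replicate 1 the ratio was 1.34, under the 1.5-fold limit. A single transcript is annotated for Tbx21, so its reads were not divided between forms.

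Eomes encodes eomesodermin, the other T-box factor of effector lymphocytes, and stood lowest of the 10. It was read at 2.07, 1.46 and 1.61 TPM, from 91, 65 and 59 estimated counts. Replicate 1 was again the highest, but the ratio of 1.43 did not pass the test (adjusted p = 0.0936, chi-square test). Both T-box factors are also expressed by natural killer cells: of 5 markers of these cells, Klrb1c alone reached 1 TPM (2.00, 3.05 and 1.90 TPM) and was highest in replicate 2, and Ncr1, their defining receptor, had 2, 0 and 0 counts. Eomes-201, the form that includes the 57-base stretch, held 77.4% ± 8.67 (SD, n = 3) of the gene's TPM. Eomes-202, which skips it, held 11.9% ± 4.89, on 4.87, 8.53 and 7.65 estimated counts. The incomplete transcript Eomes-203 held 10.7% ± 4.53. An antisense gene over the end of Eomes, Gm33460, was read at 1.65, 0.30 and 1.40 TPM.

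Genes of the type 1 programme were well represented in the same libraries. Of 16 listed, 15 reached 1 TPM in every library; the other was the homeobox factor Hlx, with 3, 0 and 0 counts. The IL-2 receptor chain Il2rb stood at 918 ± 89.0 TPM, the chemokine receptor Cxcr3 at 260.0 ± 43.2 TPM and the IL-12 signal transducer Stat4 at 190.0 ± 14.1 TPM. The IL-12 receptor chain Il12rb2 was among the lowest at 3.12, 1.86 and 5.12 TPM. Libraries differed for 14 of the 15 tested, beside 44.9% of all genes tested. Replicate 2 was lowest in 11 of these 14, as it was for Tbx21, beside 36.6% of all called genes. Among genes with at least 100 counts in sum, 51.9% were called. All 5 general T cell markers were also called with replicate 2 lowest, while all 5 erythroid genes were called with replicate 1 lowest, and their part in these differences was not tested.

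Gata3, on chr2:9857078-9890034 (minus strand), encodes the type 2 factor, which CD4 T cells also need for their development. Its levels were 106, 105 and 111 TPM, a mean of 107 ± 2.99 TPM, and 1662 of 22028 protein-coding genes stood at or above it. In CPM replicate 3 was instead the lowest library, at 210, 212 and 192 CPM (ratio 1.11, adjusted p = 3.2e-05, chi-square test). The order of the libraries thus depended on the scale. Gata3-205, a noncoding transcript of the gene, was given 15.1 TPM on 34.5 estimated counts in replicate 3 and none in the others. The coding transcript Gata3-201 was read at 104, 102 and 93.6 TPM, lowest in replicate 3 on this scale too, and held 93.1% ± 7.43 of the gene's TPM and 99.1% of its estimated counts. Without replicate 3 the difference was not called (ratio 1.01, adjusted p = 0.763, chi-square test). Gata3-202 and Gata3-203, the forms with the most upstream starts, 11434 bases before that of Gata3-201, had no count in any library. An antisense gene over the start of Gata3-201, Gm13256, was read at 1.11, 1.57 and 0.83 TPM.

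Of the type 2 genes, receptors and signalling genes stood highest, and the cytokine genes Il5 and Il13 were not detected at this depth. Of 12 listed, 8 reached 1 TPM in every library. Stat6, which relays IL-4, was at 244 ± 10.4 TPM, the receptor chain Il4ra at 182 ± 3.79 TPM, and the chemokine receptors Ccr8 and Ccr4 at 90.5 ± 12.6 and 29.8 ± 1.02 TPM. For Il5 and Il13 there was no estimated count in any library, where 3 counts would be 0.141 to 0.162 CPM. Il4 was read at 4.23, 3.84 and 4.93 TPM on 29, 28 and 30 counts. Libraries differed for 4 of 9 tested, a share close to the 44.9% of all genes.

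Maf encodes c-Maf, which acts in IL-10 and IL-21 expression and in follicular T cells. It was read at 36.1, 32.1 and 36.9 TPM, a mean of 35.0 ± 2.53 TPM, with replicate 2 lowest. A difference between libraries was not called (ratio 1.07, adjusted p = 0.137, chi-square test). The 2 forms printed above gave opposite orders on the 2 scales. By TPM, the spliced Maf-201 held 57.9% ± 3.46 and the unspliced Maf-202 42.1% ± 3.46; by estimated counts, Maf-201 held 40.9% ± 3.38 and Maf-202 59.1% ± 3.38. Maf-202 is 6360 bases long, against 3223 for Maf-201, so each molecule of it yields more fragments. Maf-202 was steady at 14.6, 14.8 and 14.7 TPM, while Maf-201 moved between 21.5, 17.3 and 22.2 TPM.

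Maf was also the member on which the deposited tables differed most. The smaller table held 53, 50 and 50 counts for it, which is 2.51% of the 2116, 2057 and 1924 estimated counts in the larger one. Over the 7276 genes that both tables hold and that had 1000 or more estimated counts, the median was 45.2%, and 230 genes, 3.16%, were at or below the value of Maf. The other 9 factors lay between 36.4% and 63.4%. An antisense gene, Gm15655, lies over Maf with all 440 of its exonic bases inside Maf exons. It was read at 6.80, 0.90 and 7.85 TPM on 35, 5 and 36 counts, so replicate 2 was low by up to 8.25-fold (adjusted p = 6.29e-06, chi-square test). Without a stated strand setting, reads of Maf and of this antisense gene cannot be told apart.

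All 8 genes listed as linked to c-Maf were present. The costimulator Icos stood at 372 ± 44.3 TPM, the AP-1 partner Batf at 286 ± 28.7 TPM, the follicular receptor Cxcr5 at 135 ± 27.2 TPM, and the repressor Bcl6 at 25.8 ± 4.21 TPM. Il21 was read at 34.4, 11.0 and 34.3 TPM, low in replicate 2 by 3.23-fold (adjusted p = 2.01e-109, chi-square test). Il10 was read at 8.28, 4.92 and 5.51 TPM. Libraries differed for 7 of the 8, beside 44.9% of all genes tested and 51.9% of those with at least 100 counts in sum. For 6 of these 7 replicate 2 was lowest, beside 36.6% of all called genes. The difference in Maf itself was not called.

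Prdm1 encodes Blimp-1, the repressor of effector regulatory T cells and plasma cells. Its levels were 29.9, 27.2 and 31.6 TPM, a mean of 29.6 ± 2.24 TPM, and its libraries were not called as different (ratio 1.09, adjusted p = 0.0818, chi-square test). Plasma cells express it at high levels: of 4 plasma cell markers, Tnfrsf17 had no count in any library, Sdc1 was at 0.49, 0.40 and 0.15 TPM, and Jchain was at 1.69, 4.56 and 2.46 TPM. Their part in the Prdm1 level was not tested. Prdm1-201, the longest form, held 69.5% ± 2.86 of the gene's TPM. Prdm1-202 held 20.4%, 20.7% and 9.63%, lowest in replicate 3. Prdm1-204, with a start downstream of that of Prdm1-201 and its own first coding bases, was read at 3.08, 1.04 and 4.18 TPM, on 101, 35.7 and 122 estimated counts. Prdm1-203, a retained intron transcript starting 69753 bases before Prdm1-201, was at 0.93, 1.2 and 1.85 TPM.

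Among the genes listed for the balance of effector and memory states, all 11 reached 1 TPM in every library. Highest of the list were the memory factors Tcf7 at 250.4 ± 53.2 TPM, Id3 at 238 ± 10.5 TPM and Lef1 at 214 ± 5.71 TPM. Id2, which promotes effector cells, followed at 151 ± 31.7 TPM. Other factors of the list were lower: Bcl6 at 25.8 ± 4.21 TPM, Bach2 at 14.9 ± 1.18 TPM and Myb at 9.99 ± 2.29 TPM. The cytokine gene Il2, which both Blimp-1 and ZEB1 are known to repress, was at 1.27, 1.46 and 2.00 TPM on 18, 22 and 26 counts. Tcf7, Id3, Lef1 and Id2 stood above Prdm1 per length in every library. Libraries differed for 7 of the 11, beside 44.9% of all genes and 51.9% of those with at least 100 counts in sum.

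Zbtb7b, on chr3:89377644-89394776 (minus strand), encodes ThPOK, which keeps CD4 T cells from taking the CD8 fate. It was read at 56.7, 61.2 and 58.6 TPM, a mean of 58.8 ± 2.28 TPM, with replicate 2 highest. In CPM the libraries stood at 110, 134 and 108, a ratio of 1.24 (adjusted p = 1.74e-15, chi-square test). Between replicates 1 and 3 alone no difference was called (ratio 1.02, adjusted p = 0.712, chi-square test). Of its 8 coding transcripts, 4 share 1 coding sequence of 1632 bases and differ in where they start.

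Starts within 500 bases of each other were grouped to sum the level from each site. The proximal group of Zbtb7b, Zbtb7b-203 and Zbtb7b-204, held 45.0, 50.3 and 40.1 TPM. Zbtb7b-204, whose start follows the printed proximal window, was given only 2.39, 3.72 and 1.92 TPM of this. Zbtb7b-203 starts further downstream, so the printed window does not end at its start. The distal group of 5 transcripts begins 1098 bases after the gene's most upstream start, where the proximal one begins 7105 bases after it. The distal group held 11.6, 10.8 and 18.4 TPM. Within it, Zbtb7b-209, whose start follows the printed distal window, was given 4.19, 0 and 0 TPM. Zbtb7b-201, the only transcript of the group not annotated as incomplete at its end, was given 1.46, 5.32 and 5.10 TPM. The proximal group thus held 76.6% ± 7.2 of the gene's TPM and 89.8% ± 4.2 of its estimated counts, higher in every library. Zbtb7b-203 alone held 72.1% ± 6.02 of the TPM. An antisense gene at the distal end, Gm15417, was read at 10.8, 9.79 and 10.5 TPM, without a difference called between libraries (adjusted p = 0.653, chi-square test), and overlaps Zbtb7b exons by 116 bases.

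Of the genes of the CD4 and CD8 choice, Cd4 stood far above the CD8 chains. It was read at 267, 242 and 283 TPM and Cd8a at 0.79, 2.56 and 1.03 TPM. Cd8b1 was higher than Cd8a in every library, at 17.7, 21.7 and 22.5 TPM. Runx3, the factor that opposes ThPOK in CD8 cells, was at 8.88, 6.61 and 7.00 TPM, its relative Runx1 at 27.8 ± 5.26 TPM, their partner Cbfb at 24.1 ± 3.57 TPM, and the zinc finger protein Patz1 at 14.4 ± 1.249 TPM. Libraries differed for 7 of these 8, all but Patz1. The share was 44.9% over all genes tested and 51.9% over those with at least 100 counts in sum.

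Satb1, on chr17:51736187-51833290 (minus strand), encodes a nuclear protein that anchors chromatin loops in T cells. Its level was 34.5, 30.8 and 32.4 TPM, a mean of 32.6 ± 1.88 TPM. Replicate 3 was lowest in CPM and replicate 2 in TPM, and the ratio of 1.11 fell just outside the threshold (adjusted p = 0.0517, chi-square test). Under 5 other settings, among them both other scalings and the libraries without replicate 2, it fell inside, at 0.0372 to 0.0497. The total was even, but its estimated division among starts was not. Satb1-204, from the most upstream start, held 52.6%, 42.3% and 26.7% of the gene's TPM. Transcripts from the group of starts 6702 bases downstream held 9.50%, 9.79% and 39.6%, so that in replicate 3 the downstream group exceeded the upstream start (12.8 against 8.66 TPM), and in the others it did not. Of the 10 coding transcripts 6, from these sites and from other starts, share a coding sequence of 2292 bases. Among these 6, Satb1-203 of the downstream group was given 0, 0 and 254 estimated counts in replicates 1, 2 and 3. Satb1-208 was given 210, 302 and 1.1. Reads of such forms are divided by estimation, and the error of that division was not measured.

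**Figure D3:**
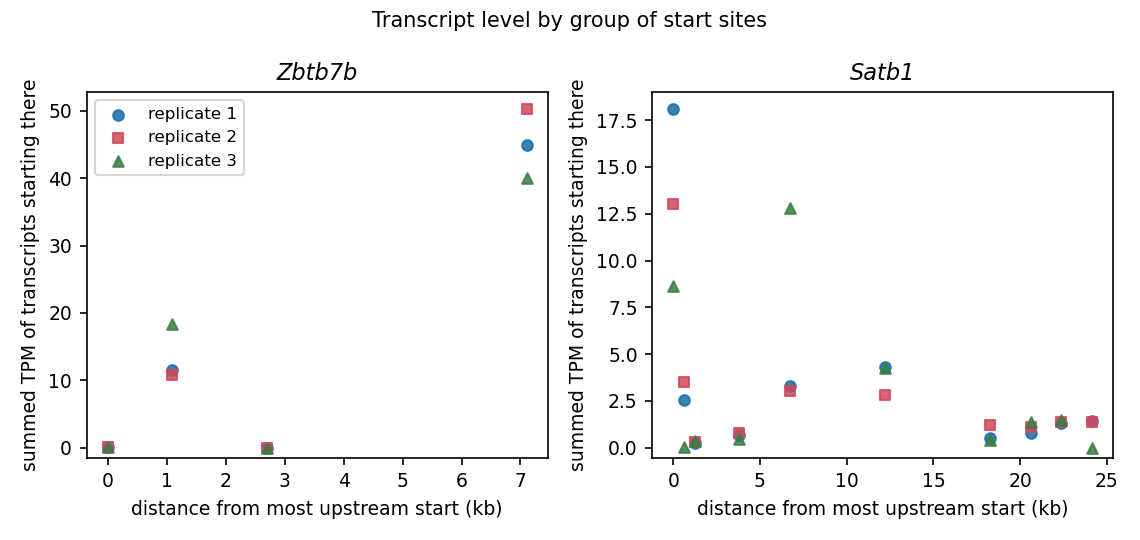
Summed TPM (y axis) of the transcripts that start within each group of sites, against the distance in kb from the gene's most upstream annotated start (x axis), for Zbtb7b (left) and Satb1 (right, with 1 group at 91024 bases left out), points being replicates 1 to 3. For Zbtb7b the group near 7 kb is highest in every library. For Satb1 the estimated order of the first start and of the group near 7 kb turns in replicate 3. In that library Satb1-203 alone was given 7.56 TPM.

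Satb1 also holds 5 single-exon genes of unresolved status inside its span on its own strand. Their summed level was 31.5, 38.7 and 37.2 TPM, below Satb1 in replicate 1 and above it in the others, and 4 of them reached a mean of 1 TPM: C230085N15Rik at 16.0 ± 2.41 TPM, 5830444F18Rik at 8.47 ± 1.55 TPM, E430014B02Rik at 5.79 ± 0.281 TPM and Gm37248 at 5.23 ± 0.907 TPM. These 4 share no exonic base with Satb1 and lie in its introns. RNA from Satb1 introns and RNA from separate genes there cannot be told apart in these tables.

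Tox, on chr4:6686353-6991557 (minus strand), encodes an HMG-box protein of the thymic CD4 pathway and of exhausted T cells, and was the highest of the 10. It was read at 125, 101 and 130 TPM. Replicate 2 was lowest, with 4618 estimated counts against 5579 in replicate 1, and the ratio was 1.23 (adjusted p = 3.3e-26, chi-square test). Without replicate 2 the difference was not called (ratio 1.03, adjusted p = 0.258, chi-square test). Only 1454 of 22028 protein-coding genes stood at or above Tox. Its 1 coding transcript, Tox-201, held 71.1% ± 4.19 of the TPM, and the retained intron transcript Tox-203, whose start lies 758 bases upstream, held 12.6% ± 1.51. By estimated counts Tox-201 held 85.1% ± 1.99.

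Genes linked to TOX and to lasting stimulation were all present: 10 of 10 reached 1 TPM in every library. The inhibitory receptor Pdcd1 was read at 268, 169 and 259 TPM, and Tigit at 89.1, 55.4 and 79.9 TPM, both lowest in replicate 2 as Tox was. The transcription factors Nfatc1 and Nr4a1 stood at 156 ± 12.5 and 105.4 ± 4.43 TPM, while the inhibitory receptor Havcr2 and Nr4a2 were the lowest of the list at 3.67 ± 1.10 and 3.17 ± 1.16 TPM. Libraries differed for 9 of the 10, beside 44.9% of all genes tested and 51.9% of those with at least 100 counts in sum. In 6 of these 9 replicate 2 was lowest, beside 36.6% of all called genes.

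Zeb1 (chr18:5591860-5775467, plus strand) and Zeb2 (chr2:44983632-45117395, minus strand) encode paired repressors with the same E-box preference, and their levels lay far apart. Zeb1 was read at 45.5, 46.2 and 43.6 TPM, a mean of 45.1 ± 1.33 TPM, and the SD of 2.94% of the mean was the smallest of the 10 after that of Gata3. Its CPM was highest in replicate 2 (ratio 1.12, adjusted p = 0.00491, chi-square test), and between replicates 1 and 3 alone no difference was called (ratio 1.00, adjusted p = 0.965, chi-square test). Zeb2 was read at 3.41, 1.21 and 2.83 TPM, a mean of 2.48 ± 1.14 TPM, on 138, 54 and 106 estimated counts. Replicate 2 was low, by 2.61-fold in CPM (adjusted p = 2.67e-08, chi-square test), and a ratio at least as large was seen in 4.21% of all genes tested. Without replicate 2 the ratio was 1.16 and not called (adjusted p = 0.44, chi-square test).

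Zeb2 is also a gene of macrophages and dendritic cells, so their markers are given beside it. Csf1r was read at 9.14, 5.48 and 9.66 TPM and Adgre1 at 3.68, 1.86 and 4.69 TPM, both called with replicate 2 lowest, as for Zeb2. Lyz2 was also lowest there, at 15.7, 12.8 and 16.7 TPM, but was not called. Itgam stood at 1.09, 1.07 and 1.15 TPM, Itgax, Cd14 and Flt3 averaged under 1 TPM, and for the neutrophil gene S100a8 every library was at 0. Over the 8 markers, 2 of the 6 tested were called, beside 44.9% of all genes tested, and the summed level was 31.1, 22.4 and 33.8 TPM. Their part in the Zeb2 difference was not tested.

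The transcripts of Zeb1 differed from those of the other 9 factors in annotated type. Coding transcripts held 23.2%, 21.4% and 15.4% of its TPM, a mean of 20% ± 4.1, whereas for the others coding transcripts held between 71.1% and 100.0% on average. Over 9640 genes with a coding share, the median was 84.6%, and 4.38% of them were at or below Zeb1. The retained intron transcript Zeb1-204, of 2 exons and 1938 bases, held 28.1% ± 2.75, the processed transcripts Zeb1-207 and Zeb1-210 held 15% ± 1.84 and 13.0% ± 3.19, and Zeb1-206, annotated as a target of nonsense-mediated decay, held 12.5% ± 0.869. The full coding transcript Zeb1-201, 5801 bases long, held 16.7% ± 2.20. By estimated counts the coding share was 39.5% ± 4.2 and Zeb1-201 was the first transcript at 38.3% ± 4.02, and 7.09% of genes were at or below Zeb1 on that scale.

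**Figure D4:**
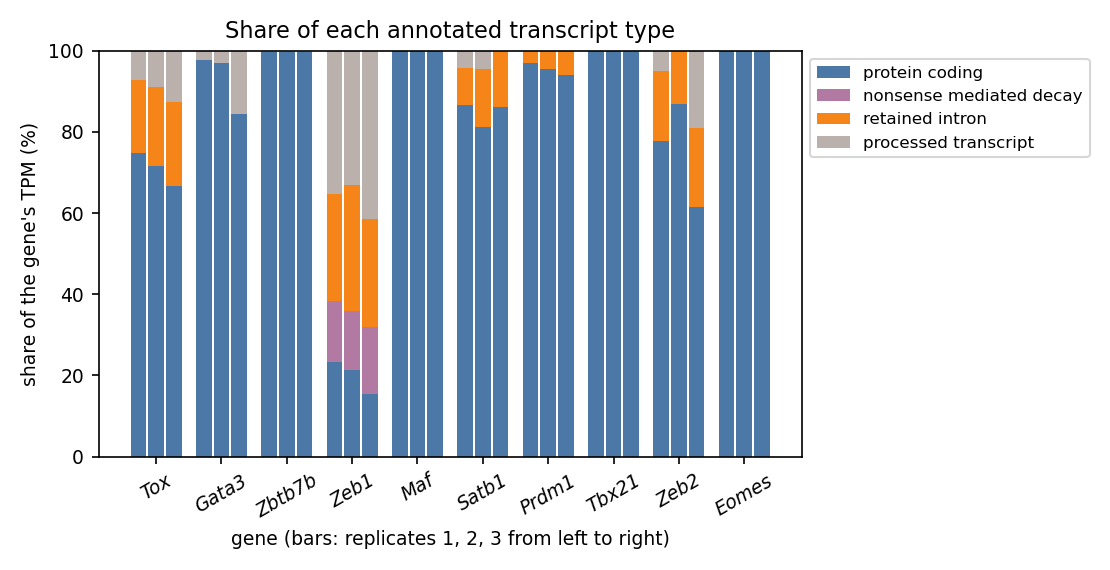
Share of each gene's TPM (y axis, percent) held by transcripts of each annotated type, with 3 bars per gene for replicates 1 to 3. Zeb1 is the gene with the smallest coding share in every library, 23.2%, 21.4% and 15.4%, while Tbx21, Maf and Eomes hold coding transcripts alone.

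Zeb2 has 29 annotated transcripts, of which 18 had no value in any library. Its main coding transcript Zeb2-201 held 36.6% ± 5.16 of the TPM and 61.4% ± 8.28 of the estimated counts, the retained intron transcript Zeb2-226 16.6% ± 3.15, and the incomplete Zeb2-222 33.3%, 0% and 0%, on 8.75 counts in replicate 1. With counts this low the division among Zeb2 transcripts is imprecise.

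ZEB cofactors were present at widely differing levels, and epithelial ZEB targets were low. The deacetylase Hdac1 stood at 305 ± 10.7 TPM, the corepressor Ncor1 at 81.3 ± 5.71 TPM and the remodeller Smarca4 at 56.3 ± 3.15 TPM. The epithelial adhesion gene Cdh1 had 0, 8 and 5 counts, and Epcam was at 4.46, 3.25 and 2.65 TPM. The corepressor Ctbp2 was at 1.40, 1.04 and 1.27 TPM, below Epcam in every library, and its relative Ctbp1 was at 11.1, 9.60 and 7.74 TPM. Of 9 genes listed, 8 reached 1 TPM in every library. Libraries differed for 6 of 8 tested, beside 44.9% of all genes and 51.9% of those with at least 100 counts in sum.

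Each factor except the ZEB pair was also set beside the other genes of its family, 45 genes in 7 families. Of these, 15 reached 1 TPM in every library and 30 did not reach a mean of 1 TPM. In the T-box family, Mga, which also binds the MYC partner MAX, was higher than Tbx21 at 50.5 ± 4.18 TPM, and Tbx6 was at 3.21 ± 0.384 TPM. The other 12 were under 1 TPM, and among them Tbx5 and Tbx22 had no count. In the MAF family, of the small proteins, which lack an activation domain, Mafk was at 35.5 ± 0.39 TPM and Mafg at 10.4 ± 1.19 TPM, but Maff was at 0.37, 0.15 and 0.09 TPM, and Mafa and Nrl, which are large proteins like c-Maf, had at most 7 counts in a library.

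Gata1 was the other GATA factor present, at 35.0, 34 and 31.4 TPM, below Gata3 in every library, in a family whose remaining genes had at most 2 counts in a library. Gata1 is best known from red cell, platelet and mast cell precursors. A difference between its libraries was not called (ratio 1.10, adjusted p = 0.324, chi-square test), and in CPM it was highest in replicate 2, at 32.4, 33.7 and 30.6. The erythroid gene Alas2, at 4.54, 9.15 and 6.72 TPM, was called with replicate 2 highest. Its lowest library was replicate 1, whereas that of Gata1 was replicate 3. Gata2, which mast cell and early progenitor cells carry, had 2, 2 and 0 counts, and the part of such cells in the Gata1 level was not tested. The smaller table held 432, 456 and 364 counts for Gata1.

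In the PRDM family 7 of 14 genes reached 1 TPM in every library, with Prdm2 at 27.2 ± 0.435, Prdm15 at 23.1 ± 3.25 and Prdm10 at 12.8 ± 1.26 TPM. Prdm9, which sets recombination sites in meiosis, was read at 6.39, 6.68 and 9.76 TPM on 144, 167 and 175 counts. Mecom and Prdm13 had no count. Zbtb7a, the relative of Zbtb7b known as LRF, was at 32.1, 26.9 and 21.3 TPM, lowest in replicate 3 (ratio 1.40, adjusted p = 1.62e-11, chi-square test), whereas Zbtb7c had 1, 0 and 0 counts.

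In the TOX family the relatives moved between libraries as well. Tox2 was read at 28.4, 12.8 and 19.7 TPM, highest in replicate 1 and lowest in replicate 2, as was Tox in CPM. Its ratio was 2.38 (adjusted p = 2.43e-50, chi-square test) beside 1.23 for Tox. Tox4, which is broadly expressed, stood at 93.4 ± 5.36 TPM, also with replicate 2 lowest (ratio 1.14, adjusted p = 2.26e-09, chi-square test). Tox3 had no count. The difference between these ratios was not tested.

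**Figure D5:**
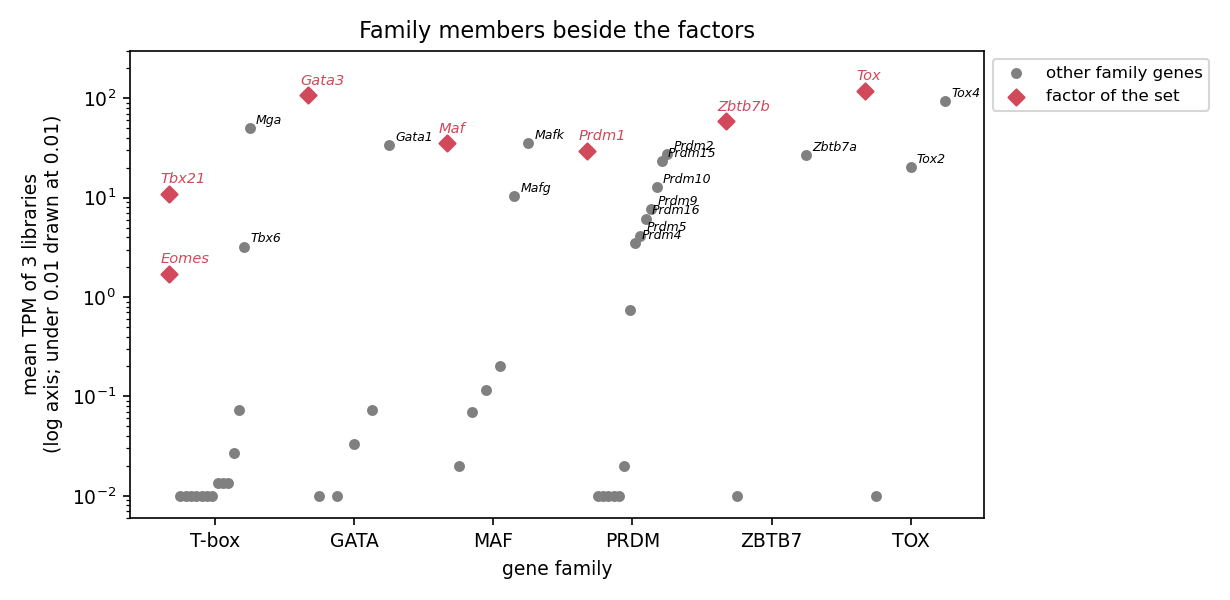
Mean TPM over the 3 libraries (y axis, log scale, with values under 0.01 drawn at 0.01) of the T-box, GATA, MAF, PRDM, ZBTB7 and TOX factors of the set (diamonds) and of the other genes of each family (circles), by family (x axis). The relatives at 1 TPM or more include Mga, Gata1, Mafk and Tox4, beside many drawn near the floor.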

How the data were processed

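The authors deposited, for each of the 3 libraries, gene and transcript tables on mm10 and GENCODE M21, whose column names are those of RSEM, per the file headers. The estimated counts, which need not be whole, stand in the expected_count column as the authors deposited them, per the file headers, and TPM and FPKM were deposited by the authors in the same tables. The authors also deposited a smaller table of whole counts (GENCODE M4, 22457 genes). Sources used here do not name the aligner, the strand setting or the smaller table's counting rule.

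Members and gene lists were chosen with earlier results of these data known. Rows that name no gene (0.231%, 0.271% and 0.189% of estimated counts in replicates 1 to 3) were left out. Depth was 20783525, 21206150 and 18496578 estimated counts, and 5746072 to 6288764 counts in the smaller table. Estimated counts were rounded and tested against library totals by a chi-square test with 2 degrees of freedom (scipy 1.17.1, Python 3.11.15), for genes whose counts summed to at least 30, and p-values were adjusted by Benjamini-Hochberg over all 14641 genes; the procedure was tested on simulated data. No molecular identifiers are stated, so amplified copies cannot be told from molecules and the test covers counting error only. edgeR's quasi-likelihood test needs groups and was not used. Transcript shares are percent values computed from the deposited transcript TPM and counts.

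Named genes are all members, all genes of lists of up to 8, the 4 highest and 2 lowest of longer lists, overlapping genes with a mean of 1 TPM or more, and transcripts with 10% or more of a member's TPM; other genes and transcripts named (among them Prdm9, Prdm15, Prdm10, Gata3-205, Prdm1-204 and Prdm1-203) were chosen after their values were seen or to complete a group. Alternatives were TMM factors (edgeR 4.0.16, R 4.3.3), DESeq2 1.42.0 size factors, other count filters, a deviance statistic, the smaller table, FPKM and posterior mean TPM, and each library left out. Promoter windows came from RefSeq (GRCm38.p6). The values of some listed genes are not reported here.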

Additional observations from a re-analysis of the deposited data

How the results depend on the processing

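The order of the 10 factors by mean level was the same in posterior mean TPM and without each library in turn. It was also the same in FPKM, summed transcript TPM and TPM rescaled to protein-coding genes. Those settings scale or re-add the same whole-gene levels, so the order within a library could not change under them. The number of factors that differed between libraries was 6 and ranged from 3 to 7 when 1 library was left out. Prdm1 gained the call without replicate 1 (adjusted p = 0.0394, chi-square test), which made 7. Without replicate 2 the number was 3, since Tox, Zbtb7b, Zeb1 and Zeb2 lost the call and Satb1 gained it. It was also 3 in the smaller gene table, where Gata3, Zbtb7b and Zeb1 lost the call at ratios of 1.04, 1.11 and 1.10. That table differs in depth, annotation and counting, and the cause was not tested. TMM factors, DESeq2 size factors, the deviance statistic and a summed count of 100 or more each gave 7, adding Satb1. The number that differed by 1.5-fold or more was 2 and ranged from 1 to 2 when 1 library was left out: Tbx21 was lost without replicate 1 and Zeb2 without replicate 2. A lower and a higher ratio limit gave 2 as well. The posterior mean put Zeb2 at 5.27 TPM, against 2.48, and the share of Zeb2-201 at 7.30%, against 36.6%. Ranked by estimated counts, the first transcript of Maf and of Zeb1 was another one. In the smaller table the highest library of Tox moved from replicate 1 to 3, the lowest of Satb1 from 3 to 2, and the lowest of Zbtb7b and Zeb1 from 3 to 1.

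The libraries are numbered technical replicates of 1 biosample, and low counts limit the precision of the transcript shares of Eomes and Zeb2. For Satb1, the error of dividing reads among forms with 1 coding sequence was not measured. No paired analysis was possible because all libraries belong to 1 group.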
